A study of Homo sapiens with 6 samples.

Results

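The genes described here encode the machinery by which a cell makes cholesterol and fatty acids. They were chosen by symbol from a fixed list of 31 names, and all 31 were found among the 15706 genes of the deposited table. Of these, 4 are regulators of the sterol regulatory element-binding proteins (SREBPs), counting the 2 SREBP genes themselves, 18 are enzymes of the sterol route and 9 are enzymes that make, lengthen or desaturate fatty acids. RNA came from MDA-MB-231, an established human triple-negative breast cancer line, grown in DMEM with serum and not treated. The control group was 3 libraries of cells with a non-targeting guide RNA, labelled wild type. The knockout group was 3 libraries of cells whose guide RNA was directed at MLL3, the histone methyltransferase gene now called KMT2C, and these are labelled MLL3 knockout. Replicates are labelled as biological replicates 1 to 3 in each group. Whether these were clones or pools, separate cultures, or different guide sequences is not stated in the labels, so p-values measure the spread between these libraries. The title of the series concerns metastasis and a hybrid epithelial and mesenchymal state, and lipid synthesis is not named in it.

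As background, cholesterol is built in the cytosol and endoplasmic reticulum from acetyl-CoA by way of mevalonate, the isoprenoid farnesyl diphosphate, squalene and lanosterol. Fatty acid synthesis draws on the same acetyl-CoA. When membrane sterol is low, SCAP escorts the SREBPs from the endoplasmic reticulum to the Golgi, where they are cut to release transcription factors that activate genes of both routes. When sterol is ample, INSIG proteins hold SCAP back. SREBP-2, the product of SREBF2, is known mainly for sterol genes, and the main SREBP-1 form, from SREBF1, mainly for fatty acid genes. Promoters of the family are known for pairing a sterol regulatory element with a nearby CCAAT box, which binds NF-Y, or a GC box, which binds Sp1.

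Levels are normalized read counts, that is, reads per gene divided by 1 size factor per library. Libraries held 41240265 to 49514464 recovered reads. KMT2C itself was read at 1367, 1379 and 1255 counts in the control libraries and 1519, 1659.9 and 1339 in the knockout libraries, a difference that did not pass the test (limma adjusted p = 0.2). The transcript level therefore does not check the label. Genes typical of the line were abundant, with VIM at 20718 to 24497 and CD44 at 17394 to 19463 counts, and the epithelial cadherin CDH1 was at 2.11 to 7.52. Of 5 line markers, AXL was called lower and CAV1 higher as deposited (limma adjusted p = 0.012 and 0.024), 40% against 33.2% of all genes. After trend removal only VIM passed, as lower (limma log2 fold change -0.20, adjusted p = 0.024), 20% against 10.0%. The receptor genes ESR1 and PGR were not among the rows used here. Besides CDH1, the luminal and receptor genes with a row were not near 0. KRT8 was at 45859 to 55702 counts, ERBB2 at 4581 to 6016, EPCAM at 765 to 999 and GATA3 at 426 to 674. Of these only GATA3 was called as deposited, as lower (limma log2 fold change -0.44, adjusted p = 0.012). It did not pass after trend removal (limma adjusted p = 0.068). Fibroblast markers (DCN, LUM, PDGFRA) and the adipocyte genes ADIPOQ and FABP4 were not among the rows used here. The adipocyte genes PLIN1 and LPL were at 5.32 to 22.6 and 34.4 to 88.6 counts. LPL was higher in the knockout libraries as deposited (limma log2 fold change 0.73 ± 0.28 SE, adjusted p = 0.04999). It did not pass after trend removal (adjusted p = 0.25). The endothelial genes PECAM1 and VWF were at 43.4 to 94.7 and 1.84 to 19.3 counts. The 3 leukocyte markers PTPRC, CD3E and CD14 summed to 519 to 842 counts in the control and 417 to 494 in the knockout libraries, and CD14 fell as deposited (limma log2 fold change -0.69 ± 0.24 SE, adjusted p = 0.032) but did not pass after trend removal (adjusted p = 0.28), where PTPRC did (-0.76, adjusted p = 0.013). No gene of the deposited table was at 0 in any library, so that these 3 were above 0 tells nothing about leukocytes. Their part in the results was not tested. In RNA from a whole culture, fewer cells of a kind and less RNA per cell cannot be told apart. Knockout over control fold changes followed the GC content of the transcripts across all genes (Spearman's rho -0.67 over 14598 genes, which are not independent replicates). Member calls are therefore given as deposited and again after a smooth trend along GC content and transcript length was removed from each library. For many genes without a call, only the deposited fit is given. Control replicate 1 stood low among the control libraries for most members, and counts of calls are also given without it.

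Members differed widely in abundance. Per kilobase of annotated exon, averaged over the 6 libraries, SCD, the desaturase that makes oleate, stood highest at 15648 normalized counts. FASN, the fatty acid synthase, followed at 5439, ACLY, which cleaves citrate to acetyl-CoA, at 4714, and DHCR7, the reductase that ends one branch of the sterol route, at 4601. The library values of FASN, ACLY and DHCR7 overlapped on this scale, whereas SCD was above all of them in every library. At the low end were HSD17B7 (177), CYP51A1 (314) and TM7SF2 (321). In GENCODE 29, 79.4% of the exon bases of CYP51A1 are shared with another annotated gene on the same strand, so its level is uncertain. ACAT2 shares 26.5% of its exon bases with SOD2 and 33.9% with SOD2-OT1 on the opposite strand. Among members called below, HMGCS1 shares 15% with AC114947.2, IDI1 14.8% with IDI2-AS1 and SREBF1 6.92% with RAI1, also on the opposite strand. The strand setting of the counting is not given in the sources used here. All members had a mean far above the minimum of 10 used for testing, so none was lost to the filter.

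Promoter sequences are shown for 3 members: SREBF2, the only member whose window held the strict sterol regulatory element motif, and HMGCS1 and ELOVL6, the members without it that had the smallest adjusted p. Sequences and start sites are from RefSeq (GRCh38.p14), where 27 of the 31 members were matched, with 37 windows of 300 bases, and ACAT2, FDFT1, FASN and SQLE were not. Each line gives the 250 bases before the start site, 5′ to 3′ on the strand of the gene. Capitals mark TCACNCCAC (the sterol regulatory element), CCAAT (the NF-Y box), CACGTG (an E-box) and GGGCGG (the GC box) on either strand, and neighbouring matches can touch or overlap. SREBF2 lies at chr22:41832855-41833104 on the plus strand, HMGCS1 (the first of its 2 windows) at chr5:43313413-43313662 and ELOVL6 at chr4:110198616-110198865, both on the minus strand.
SREBF2: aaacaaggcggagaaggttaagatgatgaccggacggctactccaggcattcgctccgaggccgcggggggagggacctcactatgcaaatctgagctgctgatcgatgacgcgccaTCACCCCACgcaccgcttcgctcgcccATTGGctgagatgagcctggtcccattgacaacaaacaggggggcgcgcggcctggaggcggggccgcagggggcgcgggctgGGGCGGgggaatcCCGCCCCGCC
HMGCS1: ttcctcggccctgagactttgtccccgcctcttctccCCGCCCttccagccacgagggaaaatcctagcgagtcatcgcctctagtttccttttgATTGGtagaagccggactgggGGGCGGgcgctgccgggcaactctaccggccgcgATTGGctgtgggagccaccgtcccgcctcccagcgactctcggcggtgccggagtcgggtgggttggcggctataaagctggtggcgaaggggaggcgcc
ELOVL6: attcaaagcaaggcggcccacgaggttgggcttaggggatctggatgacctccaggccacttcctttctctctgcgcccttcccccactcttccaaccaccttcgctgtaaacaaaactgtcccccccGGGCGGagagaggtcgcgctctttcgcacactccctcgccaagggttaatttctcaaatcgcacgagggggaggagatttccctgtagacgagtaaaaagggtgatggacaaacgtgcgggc
In SREBF2 the sterol regulatory element begins 133 bases before the start and a CCAAT box, read on the opposite strand, 106 bases before it. HMGCS1 held CCAAT boxes 155 and 100 bases before the start and GGGCGG matches 213 and 134 bases before it, while ELOVL6 held a GGGCGG match alone, 122 bases before its start. Over all members matched, CCAAT was found in the windows of 21 of 27 (77.8%), against 42.7% of 11021 tested genes with a window. GGGCGG was found in 25 of 27 (92.6% against 75.7%), CACGTG in 5 of 27 (18.5% against 12.2%) and TCACNCCAC in 1 of 27 (3.70% against 1.48%). Counted by window, CCAAT was in 25 of 37 member windows (67.6%) and in 34.6% of all 35116 windows of the same length. A match of letters is a description and not a site of binding.

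Of the 31 members, 10 passed the test as deposited, 6 higher and 4 lower in the knockout libraries. That share, 32.3%, lies next to the 33.2% called among all 14618 genes tested, of which 18.9% were higher and 14.4% lower. The 6 that rose were HMGCS1, SC5D, MSMO1 and IDI1 of the sterol route and ELOVL6 and ELOVL5, which lengthen fatty acids. SREBF1, FASN, MVD and NSDHL fell. With the GC and length trend removed, 0 of 31 members passed, against 10.0% of 14598 genes (4.08% higher and 5.95% lower). In that fit 7 members had an unadjusted p under 0.05 (SREBF1, HMGCS1, NSDHL, TM7SF2, ELOVL6, FADS1 and FADS2). The share of all genes at that unadjusted threshold is not given here, so this count has no background beside it. The same 10 members, in the same directions, stood at an adjusted p under 0.05 in the authors' deposited table, where the share over all genes with a value was 38.5%. edgeR and DESeq2 on the recovered reads also called these 10.

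**Figure D1:**
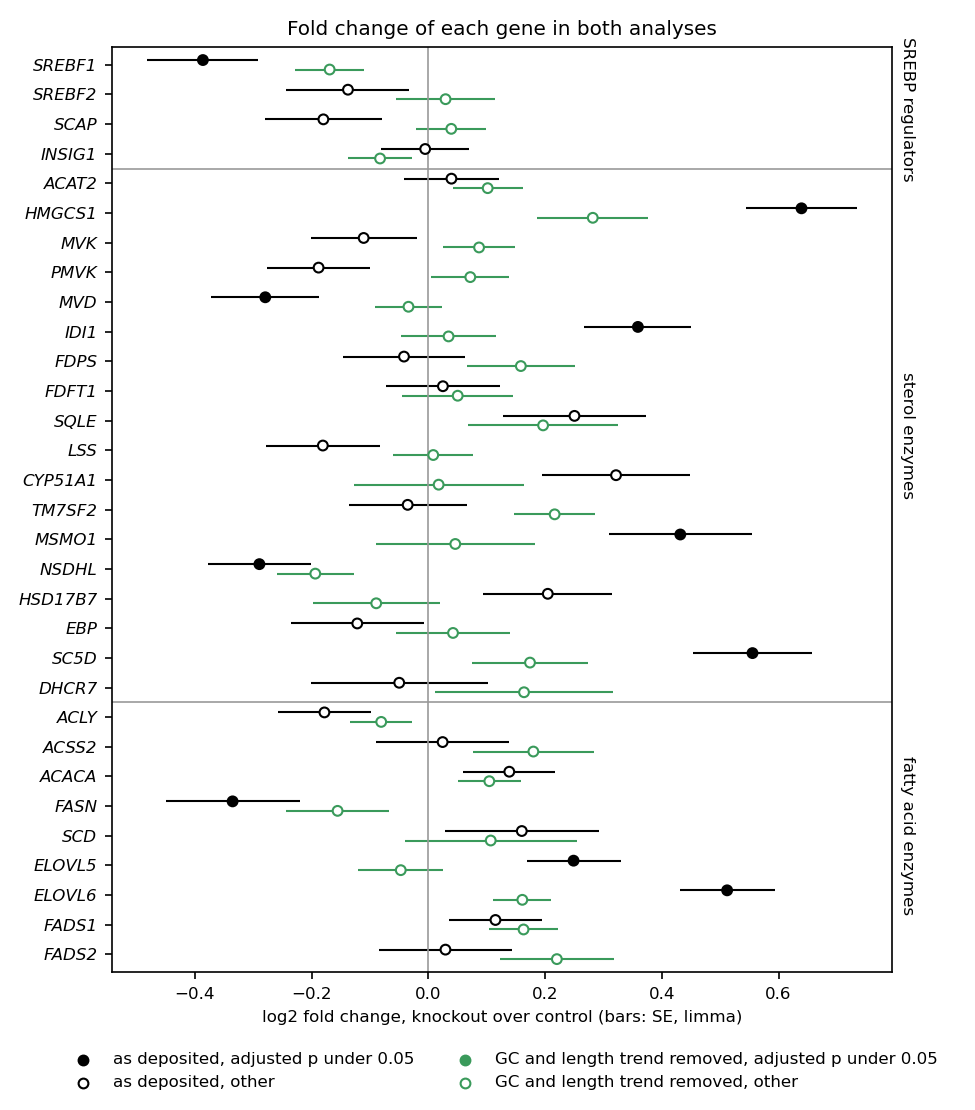
Log2 fold change of knockout over control for each of the 31 genes (x axis, bars are the SE from limma, 3 libraries per group), as deposited (black) and with the GC and length trend removed (green), with filled points for adjusted p under 0.05. The filled black points are 6 to the right and 4 to the left of 0, and no green point is filled.

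Gene positions are given on GRCh38 as GENCODE 29 has them. The sterol route begins with ACAT2, which joins acetyl-CoA units, and HMGCS1, the synthase that makes HMG-CoA. HMGCS1 (chr5:43289395-43313512, minus strand) was read at 2850.4, 3478 and 3475 normalized counts in the control libraries (replicates 1 to 3 in order) and 5403, 5183 and 4649 in the knockout libraries. Every knockout library lay above every control library, and the gene rose from 3268 ± 362 to 5079 ± 388 (SD, n = 3 each; limma log2 fold change 0.64 ± 0.095 SE, adjusted p = 0.00014). With the trend removed it stood at 0.28 ± 0.095 SE (adjusted p = 0.086). Among the 6 fits as deposited that each left out 1 library, HMGCS1 was one of 3 members that kept their call in all of them, beside SC5D and ELOVL6. With the trend removed as well, HMGCS1 passed only without control replicate 1 or control replicate 3. ELOVL6 then passed only without control replicate 1, and SC5D in none of these fits. ACAT2 overlapped between the groups, at 5034, 5228 and 5494 in the control and 5745, 5282 and 5173 in the knockout libraries (0.04, SE 0.081).

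Mevalonate is next phosphorylated by MVK and PMVK, decarboxylated by MVD and isomerized by IDI1. MVD (chr16:88651935-88663161, minus strand) was read at 4683, 4782 and 5648 normalized counts in the control libraries (replicates 1 to 3 in order) and 3989, 3896 and 4552 in the knockout libraries. The groups did not overlap, although knockout replicate 3 came close to control replicate 1 (limma log2 fold change -0.28 ± 0.093 SE, adjusted p = 0.028). IDI1 (chr10:1039152-1049170, minus strand), the isomerase that gives the cell its allylic isoprene unit, was read at 3939, 4606 and 4437 normalized counts in the control libraries (replicates 1 to 3 in order) and 6141, 5508 and 5023 in the knockout libraries. It rose from 4327 ± 347 to 5557 ± 561 without overlap (limma log2 fold change 0.36 ± 0.092 SE, adjusted p = 0.0073). Removing the trend brought MVD to -0.034 ± 0.057 SE (adjusted p = 0.76) and IDI1 to 0.035 ± 0.081 SE (adjusted p = 0.84). PMVK also separated the groups, with 2320.4, 2074 and 2230.4 counts in the control and 1924, 1913 and 1972 in the knockout libraries, but did not pass (limma adjusted p = 0.11), and MVK overlapped. PMVK went from -0.19 as deposited to 0.072 with the trend removed (limma adjusted p = 0.55).

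FDPS, the branch point that supplies both sterols and prenyl groups, FDFT1, which makes squalene, SQLE, which oxidizes it, and LSS, which closes the ring to lanosterol, gave no call. Their log2 fold changes ran from -0.18 for LSS to 0.25 for SQLE, with adjusted p of 0.12 or more. In SQLE, control replicate 1 stood at 1345 counts, while the other control libraries were at 1921 and 1999.5 and the knockout libraries at 2105, 2103 and 1965. FDPS was at 5896, 7604 and 8429 in the control libraries, so that 1 control was below and 2 were above all knockout values of 7225, 6749 and 7104.

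Lanosterol is turned into cholesterol by a string of membrane enzymes, of which MSMO1, a methylsterol oxidase, and SC5D, a sterol desaturase, rose and NSDHL, a dehydrogenase that acts with MSMO1, fell. MSMO1 (chr4:165327623-165343160, plus strand) was read at 3132, 4697 and 4382 normalized counts in the control libraries (replicates 1 to 3 in order) and 6127, 5264 and 4904 in the knockout libraries. Its knockout values were above all control values, with 3132 in control replicate 1 far below the rest (limma log2 fold change 0.43 ± 0.12 SE, adjusted p = 0.013). SC5D (chr11:121292453-121308694, plus strand) was read at 1922, 2325 and 2352 normalized counts in the control libraries (replicates 1 to 3 in order) and 3660.2, 3049 and 2989 in the knockout libraries. It rose from 2199.7 ± 241 to 3233 ± 371 (limma log2 fold change 0.56 ± 0.10 SE, adjusted p = 0.00078), again without overlap. NSDHL (chrX:152830967-152869729, plus strand) was read at 3158, 3196 and 3712 normalized counts in the control libraries (replicates 1 to 3 in order) and 2802, 2634 and 2780.1 in the knockout libraries, each knockout value below each control value (limma log2 fold change -0.29 ± 0.089 SE, adjusted p = 0.019). Once the trend was taken out, MSMO1, SC5D and NSDHL were at 0.046, 0.17 and -0.19 (adjusted p = 0.87, 0.3 and 0.087).

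The other enzymes of this stretch, CYP51A1, TM7SF2, HSD17B7, EBP and DHCR7, did not pass. CYP51A1, the lanosterol demethylase, and HSD17B7, a ketone reductase, were higher in every knockout library than in any control library, at 0.32 and 0.20 (limma adjusted p = 0.059 and 0.16). Trend removal brought CYP51A1 to 0.018 and HSD17B7 to -0.089 (limma adjusted p = 0.96 and 0.66). HSD17B7 has a close pseudogene copy, so its reads are uncertain. DHCR7 was read at 13162, 21224 and 24967 normalized counts in the control libraries (replicates 1 to 3 in order) and 17164, 18112 and 20222 in the knockout libraries. The lowest and the highest DHCR7 values of the series both came from control libraries, 1.90-fold apart, and the knockout libraries lay between them (-0.05, SE 0.15, limma adjusted p = 0.83).

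**Figure D2:**
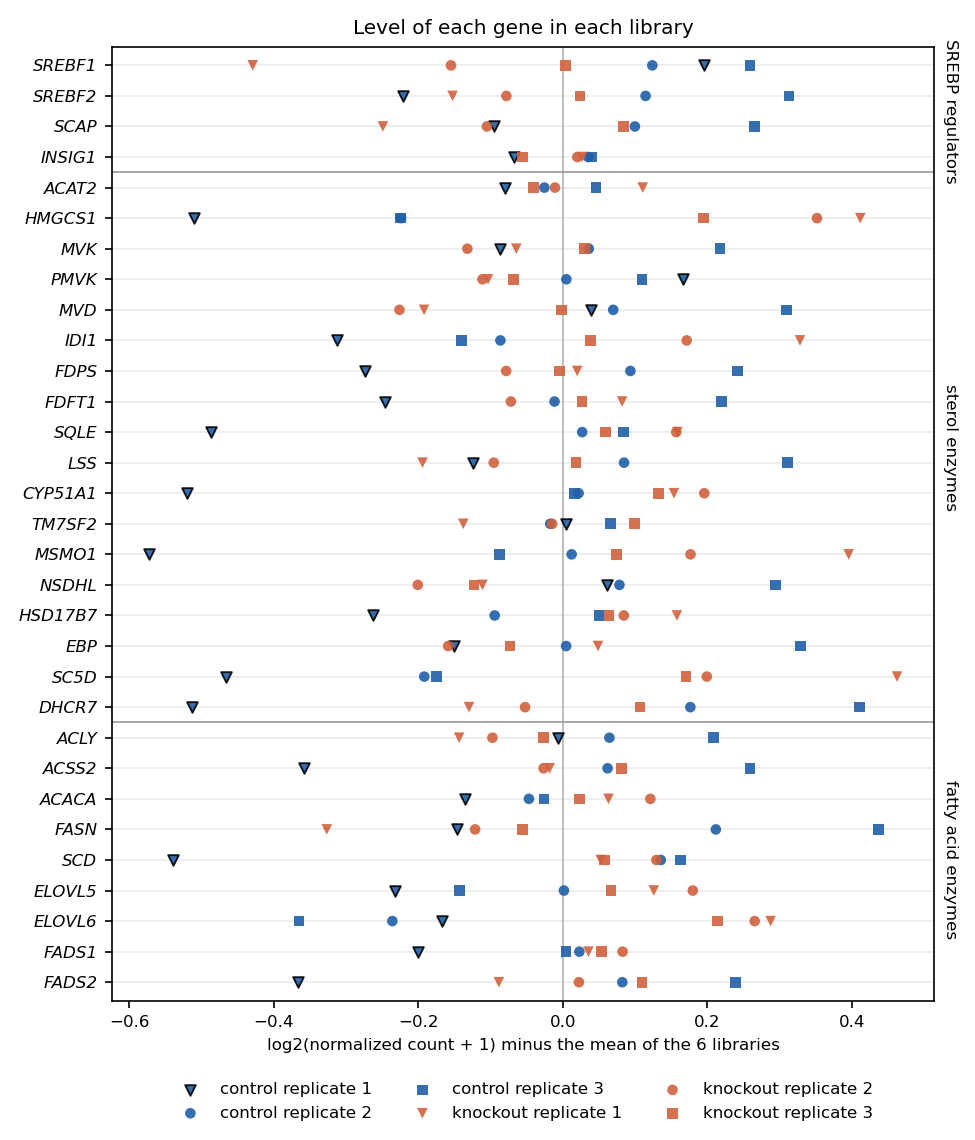
Log2(normalized count + 1) of each gene in each library minus its mean over the 6 libraries (x axis), with genes in pathway order and 1 point per library (blue control, orange knockout, the shape gives the replicate). Control replicate 1, outlined in black, is the lowest of the 3 control libraries in 27 of 31 genes.

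Fatty acid synthesis starts from acetyl-CoA made by ACLY or ACSS2, which ACACA carboxylates and FASN builds into palmitate. FASN (chr17:82078333-82098332, minus strand) was read at 45311, 58071 and 67884 normalized counts in the control libraries (replicates 1 to 3 in order) and 39981, 46094 and 48251 in the knockout libraries. The knockout libraries were lower on average, but knockout replicates 2 and 3 were above control replicate 1, so the groups overlapped. The gene fell from 57088 ± 11318 to 44775 ± 4290.1 (SD, n = 3 each; limma log2 fold change -0.34 ± 0.11 SE, adjusted p = 0.032). Removal of the trend brought it to -0.16 ± 0.089 SE (adjusted p = 0.3). ACLY had knockout values of 22197, 22918 and 24071, all below the control values of 24414, 25639 and 28331, without a call (limma adjusted p = 0.092). ACACA was slightly higher in each knockout library than in each control library (0.14, SE 0.079, adjusted p = 0.18), and ACSS2 did not separate the groups (0.024, SE 0.11).

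Palmitate is lengthened by ELOVL6, polyunsaturated chains are lengthened by ELOVL5, and SCD, FADS1 and FADS2 add double bonds. ELOVL6 (chr4:110045846-110199199, minus strand) was read at 4503, 4293 and 3925 normalized counts in the control libraries (replicates 1 to 3 in order) and 6171, 6078 and 5865 in the knockout libraries. Its knockout libraries lay close together and above every control library, and it rose from 4240.1 ± 293 to 6038 ± 157 (limma log2 fold change 0.51 ± 0.082 SE, adjusted p = 0.00025). ELOVL5 (chr6:53267398-53349179, minus strand) was read at 11539, 13571 and 12280.0 normalized counts in the control libraries (replicates 1 to 3 in order) and 14793, 15357 and 14199.8 in the knockout libraries, a smaller rise without overlap (limma log2 fold change 0.25 ± 0.081 SE, adjusted p = 0.025). With the trend removed ELOVL6 stood at 0.16 ± 0.05 SE (adjusted p = 0.064), and ELOVL5 changed sign, to -0.047 ± 0.073 SE (adjusted p = 0.74). SCD, FADS1 and FADS2 had log2 fold changes of 0.16, 0.11 and 0.029, none of which passed. SCD was read at 56988, 90989.5 and 92753 normalized counts in the control libraries (replicates 1 to 3 in order) and 85892, 90607 and 86204 in the knockout libraries, so that 5 libraries were alike and control replicate 1 lay far below them.

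Among the regulators, SREBF1 (chr17:17810399-17837002, minus strand) was the only one called. It was read at 17144, 16308 and 17912 normalized counts in the control libraries (replicates 1 to 3 in order) and 11115, 13444 and 15009 in the knockout libraries. Each knockout library was below each control library, and the gene fell from 17122 ± 802 to 13189 ± 1959.5 (limma log2 fold change -0.39 ± 0.095 SE, adjusted p = 0.0059). With the trend removed it stood at -0.17 ± 0.059 SE (adjusted p = 0.095). SREBF2, at 12268, 15482 and 17763 in the control and 12864, 13546 and 14536 in the knockout libraries, overlapped (-0.14, adjusted p = 0.33), as did SCAP (-0.18, adjusted p = 0.17). INSIG1, itself known as an SREBP target, was nearly level at 10471, 11240.4 and 11276 in the control and 11175, 11123 and 10556 in the knockout libraries (-0.0055, SE 0.076).

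The direction of the calls was ordered by base composition. The 8 members with a GC content under 42% included all 6 that rose, and their median log2 fold change was 0.40, which was also the median of the 3462 tested genes in that range. Among those 3462 genes 56.7% were called higher. The 18 members with a GC content of at least 50% included all 4 that fell, with a median of -0.13, where all 6633 genes of that range had a median of -0.21 and 29.3% were called lower. None of the 5 members in between was called. Over the 31 members Spearman's rho between GC content and log2 fold change was -0.86 as deposited and -0.12 with the trend removed, values that share their libraries and depth. Beyond the trend, 23 of 31 members were above 0 and 8 below, with a median of 0.050. Of all 14598 genes, 6748 were above 0 and 7850 below, with a median of -0.018. Without control replicate 1, 13 members were above 0 and 18 below, with a median of -0.055. In that fit 6709 of all 14598 genes were above 0 and 7889 below, with a median of -0.020. Since the trend runs between the groups, it and the group cannot be told apart.

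Inside the control group, 1 library was low for most of these genes. Control replicate 1 was the lowest of the 3 control libraries in 27 of 31 members (87.1%), against 35.4% of all tested genes. It was the lowest of all 6 libraries in 19 members (61.3% against 15.3%). The exceptions were SREBF1, PMVK and TM7SF2, lowest in control replicate 2, and ELOVL6, lowest in control replicate 3. In the 4 lists of other genes given below, control replicate 1 was the lowest control library in 52.6% to 69.2% of genes. The highest share was in sterol transport and efflux. In 13 members, 41.9% against 12.7% of all genes, control replicate 1 stood under 0.8 times the mean of the other control libraries. The ratio was 0.570 for DHCR7, 0.620 for SCD, 0.686 for SQLE and 0.688 for CYP51A1. Their GC content ran from 41.5% in CYP51A1 to 58.3% in DHCR7, and with the trend removed the count was again 27 of 31 (38.6% over all genes). Control replicate 3 was at the other end, the highest control library in 23 of 31 members (36.1% over all genes). The leukocyte gene CD14 was also low in control replicate 1, at 194, 410.3 and 482 counts in the control and 209, 197 and 222 in the knockout libraries, and CD3E likewise (23.7, 66.6 and 86.9 and 40.1, 23.9 and 12.8), whereas PTPRC was not (302, 258 and 273 and 208, 197 and 259). What part these have in the pattern was not tested. The pattern was noticed in the data and is given as a description.

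Members together took 0.684% of the normalized counts of control replicate 1, 0.857% and 0.900% of control replicates 2 and 3, and 0.802%, 0.832% and 0.840% of knockout replicates 1, 2 and 3. Recovered reads were 41240265 in control replicate 1 and 41401044 in knockout replicate 1, the 2 lowest totals, and these libraries also had the 2 lowest shares. Control replicate 2 had the next total, 42024652, and its share of 0.857% was above that of every knockout library. The part of depth in this was not tested. In 26 of 31 members the control libraries ranged more widely than the knockout libraries (83.9%, against 60.2% of all genes). The median range was 0.30 on the log2 scale in the control and 0.15 in the knockout libraries, where all genes had 0.28 and 0.23. In 21 members (67.7% against 56.7%) the range of the control libraries exceeded the difference between the groups.

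Leaving out control replicate 1 moved many members. As deposited, 15 then passed, 6 higher and 9 lower (42.2% of all genes passed in that fit, 22.6% higher and 19.6% lower), with ACLY, DHCR7, LSS, SCAP and SREBF2 added as lower and the earlier 10 kept. DHCR7 went from -0.05 to -0.32 (limma adjusted p = 0.0023) and SREBF2 from -0.14 to -0.28 (adjusted p = 0.0049). With the trend removed as well, 10 members passed, 3 higher and 7 lower, against 24.7% of all genes (10.2% higher and 14.5% lower). HMGCS1, ELOVL6 and TM7SF2 were higher, at 0.15, 0.17 and 0.24. FASN, SCD, INSIG1, SREBF1, NSDHL, MSMO1 and ELOVL5 were lower, from -0.28 for FASN to -0.13 for SCD. MSMO1 and ELOVL5 thus passed in the direction opposite to the deposited values, and 5 of the 10 kept theirs. Leaving out another library with the trend removed gave few or no calls: 1 member, HMGCS1, passed without control replicate 3 (6.07% of all genes), and 0 passed without control replicate 2 (5.01%), knockout replicate 1 (2.60%), knockout replicate 2 (2.84%) or knockout replicate 3 (4.14%). As deposited, other libraries also moved the count: without knockout replicate 1 the number of members called was 3 (HMGCS1, SC5D and ELOVL6, with 14.7% of all genes called), without knockout replicate 2 it was 6 (17.1%), and without control replicate 3 it was 8 (21.6%). Without control replicate 2 it was 10 (25.2%) and without knockout replicate 3 also 10 (33.7%). FASN lost its call without control replicate 2, control replicate 3, knockout replicate 1 or knockout replicate 2, and MVD, NSDHL and ELOVL5 without any of the last 3 of these. Of the 6 fits as deposited that left out 1 library, SREBF1, IDI1 and MSMO1 lost their calls in 1, that without knockout replicate 1.

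Sterol and fatty acid enzymes had the same share of calls. Among the 18 sterol enzymes 4 were higher and 2 lower, and among the 9 fatty acid enzymes 2 were higher and 1 lower, 33.3% in each class, next to 33.2% of all tested genes (18.9% higher and 14.4% lower). By median log2 fold change, sterol enzymes were at -0.0053 and fatty acid enzymes at 0.11, with all tested genes at -0.017. With the trend removed these were 0.061 and 0.11, with all genes at -0.018, and without control replicate 1 as deposited they were -0.067 and -0.070. Both classes were low and high in the same control libraries. The median of gene-centred log2 levels was -0.25 for sterol and -0.20 for fatty acid enzymes in control replicate 1, and 0.097 and 0.16 in control replicate 3, while the knockout libraries ran from -0.033 to 0.083. The spread of these medians within a group (pooled SD 0.13 for each class) was larger than the difference between the groups. A difference between the classes was not tested.

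**Figure D3:**
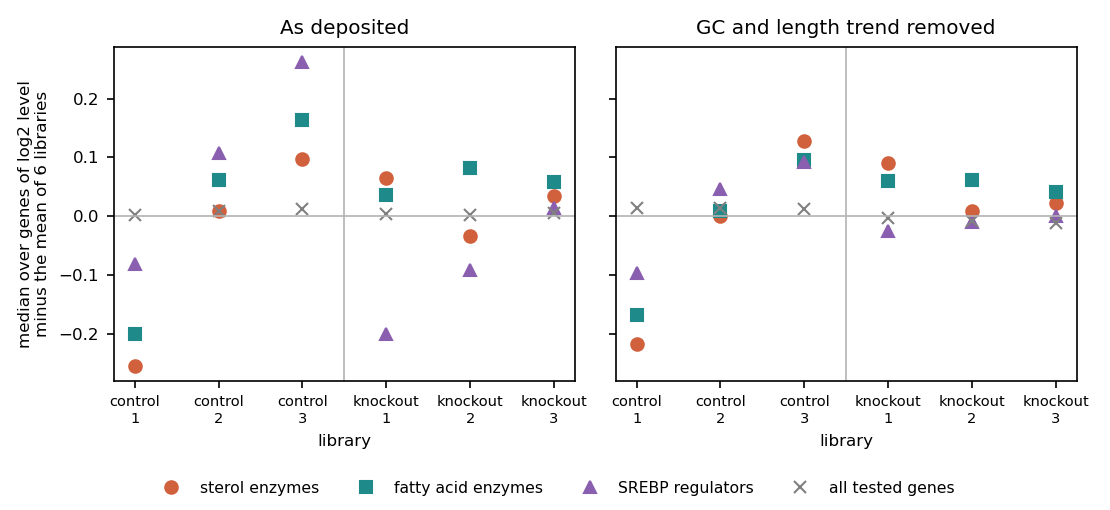
Median over the genes of each class of the log2 level minus the mean of 6 libraries (y axis) in each library (x axis), as deposited (left) and with the GC and length trend removed (right). Sterol and fatty acid enzymes are lowest in control replicate 1 in both panels, at -0.25 and -0.20 on the left, and all tested genes stay near 0.

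Groups did not overlap in 15 of 31 members (48.4%), 10 higher and 5 lower in the knockout libraries, against 46.3% of all tested genes (23.9% higher and 22.4% lower). By class these were 9 of 18 sterol enzymes, 5 of 9 fatty acid enzymes and 1 of 4 regulators.

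Other genes of the same physiology were taken from 4 lists of 59 symbols, 57 of which had a row. Of 13 further genes of SREBP regulation, 5 were higher and 2 lower, where 18.9% of all tested genes were higher and 14.4% lower. After trend removal 2 were higher and 0 lower (4.08% and 5.95% of all genes). LPIN1, a phosphatidate phosphatase that also acts on nuclear SREBP, was read at 4622, 4724 and 4409 normalized counts in the control libraries (replicates 1 to 3 in order) and 6069.8, 6112 and 5742 in the knockout libraries. It rose without overlap (limma log2 fold change 0.38 ± 0.078 SE, adjusted p = 0.0017), and the call held after trend removal, at 0.34 ± 0.051 SE (adjusted p = 0.0029). FBXW7, the ubiquitin ligase subunit that marks nuclear SREBPs for degradation, rose from 557 ± 85.8 to 834 ± 42.2 (limma log2 fold change 0.59 ± 0.12 SE, adjusted p = 0.0018) and passed with the trend removed (then 0.49, adjusted p = 0.018). The trend-removed call of FBXW7 was lost without control replicate 2 or any 1 knockout library (log2 fold change of FBXW7 0.38 to 0.53, limma adjusted p 0.065 to 0.11). MID1IP1, which promotes assembly of the carboxylase ACACA, passed as lower in the deposited values (-0.29) and lost the call once the trend was removed (-0.11).

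Of 13 genes of sterol transport and efflux, 2 were higher and 1 lower, 23.1% against 33.2% of all tested genes, and 1 passed with the trend removed (10.0% of all genes). STARD4, a soluble sterol carrier known as an SREBP target, was read at 1308, 1751 and 1447 normalized counts in the control libraries (replicates 1 to 3 in order) and 2819, 2630.3 and 2168 in the knockout libraries. It rose from 1502 ± 226 to 2539 ± 335 (limma log2 fold change 0.76 ± 0.12 SE, adjusted p = 0.00018) and kept its call after trend removal (then 0.33, adjusted p = 0.045). The trend-removed call of STARD4 was lost without control replicate 3 or any 1 knockout library (log2 fold change of STARD4 0.30 to 0.37, limma adjusted p 0.081 to 0.20). SOAT1, which esterifies cholesterol, was higher as deposited (0.29) and stood at -0.11 with the trend removed, and NR1H3, the sterol-sensing receptor LXR-alpha, was lower (-0.38, and -0.20 without a call). Among 12 genes of the isoprenoid branches 5 were higher and 1 lower (18.9% and 14.4% of all tested genes). With the trend removed 0 of these 12 passed limma's test, against 10.0% of all genes, and 0 had an unadjusted p under 0.05 (share of all genes not given here). RABGGTB and PGGT1B, subunits of prenyl transferases, stood at 0.46 and 0.63 as deposited and 0.039 and 0.16 with the trend removed, and RABGGTA at -0.28 and -0.042.

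Of 19 further genes of fatty acid and glycerolipid synthesis, 7 were higher and 3 lower, where 18.9% of all tested genes were higher and 14.4% lower. ACSL3 and ACSL4, which activate long-chain fatty acids, rose by 0.57 and 0.44, and SLC25A1, the mitochondrial citrate carrier, and ACACB, the mitochondrial acetyl-CoA carboxylase, had log2 fold changes of -0.28 and -0.39. None of these 4 passed with the trend removed. HACD1, a dehydratase of fatty acid elongation chosen after its values were seen, was the 1 gene of this list called then (10.0% of all genes), at -0.54 ± 0.081 SE (adjusted p = 0.0029), from -0.22 as deposited (adjusted p = 0.087). The median GC contents of the 4 lists, in the order given, were 46.1%, 49.2%, 43.9% and 44.8%, where the members had 50.5% and all tested genes 48.5%.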

How the data were processed

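RNA-seq of 3 control and 3 knockout libraries was analysed from 1 deposited table. Per the submitters' processing notes, the tools were FastQC, featureCounts 1.5.0, STAR 2.4.0 and DESeq2 1.30.1, and the build GRCh38.p13. Not given in the sources used here are the annotation, strandedness and filters. Deposited by the authors were a normalized signal (counts divided by size factors), a log2 fold change, a test statistic (a score) and a p-value with its adjusted form, per the file headers. Every value was a whole multiple of its library's step within 0.01, which gave 41240265 to 49514464 whole reads per library.

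Genes whose mean reached 10, 14618 in number, were tested with limma 3.58.1 in R 4.3.3 on log2(value + 1), with a mean-variance trend, Benjamini-Hochberg adjusted p under 0.05 as the call. Fold changes are on that scale. Trend removal fitted splines of GC content and log2 length of the longest GENCODE 29 transcript (5 terms each) to each library, over 14598 genes. The recovered reads were also tested with DESeq2 1.42.0 and edgeR 4.0.16, and the scripts were tested on simulated data. Alternatives numbered 22. No sample was dropped or imputed in the main test.

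Members and lists were chosen with earlier results of these data known. All members are named, and of each other list up to 2 genes per direction with the smallest adjusted p. A gene that this rule names is not reported here.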

Additional observations from a re-analysis of the deposited data

How the results depend on the processing

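The 10 calls among the 31 genes were the same genes with either pseudocount, either filter, edgeR and DESeq2, and 9 of them held with quantile normalization. With the GC and length trend removed, calls went to 0 among all 31 genes, the sterol enzymes, the fatty acid enzymes, the regulators and the isoprenoid genes, to 2 in other SREBP regulation, 1 in sterol transport and 1 in other fatty acid genes. ELOVL5 then stood at -0.047 and SOAT1 at -0.106. Deviations of same-numbered libraries were weakly correlated (0.066, 0.006 and 0.129 for replicates 1 to 3). Control replicates 1 and 3 correlated best with the knockout library of the same number, and control replicate 2 with knockout replicate 1 (0.027). With 3 libraries a group, these values cannot settle whether the numbers pair the libraries. A replicate block gave 15 calls among the 31 genes, the earlier 10 included, 9 among sterol and 4 among fatty acid enzymes, 2 among regulators, 6 in transport and 15 in other fatty acid genes. For this fit and the next, the share of all tested genes called is not given here. Whether the members differ from all genes there was not tested. The replicate block with the trend removed gave 0 calls among the 31 genes and each of their classes, 2, 0, 0 and 1 in the other lists in the order SREBP regulation, transport, isoprenoid and fatty acid genes, and again -0.047 for ELOVL5 and -0.106 for SOAT1. Leaving out 1 library at a time, with and without the trend, calls ran from 0 to 15 among the 31 genes, 0 to 8 in sterol enzymes, 0 to 4 in fatty acid enzymes and 0 to 3 in regulators. In the other lists they ran from 1 to 8, 0 to 7, 0 to 6 and 1 to 12. Median log2 fold changes ran from -0.067 to 0.151 for sterol and from -0.07 to 0.16 for fatty acid enzymes. Against the deposited values of all 6 libraries, a sign change in a fit, counted where the value passed in that fit or with all 6, occurred in MVD (-0.349 to 0), IDI1 (-0.068 to 0.429), TM7SF2 (-0.094 to 0.238), MSMO1 (-0.17 to 0.546), SCD (-0.128 to 0.282), ELOVL5 (-0.137 to 0.312), SOAT1 (-0.17 to 0.36), RABGGTB (-0.005 to 0.482), SLC25A1 (-0.372 to 0.024) and ACSL4 (-0.07 to 0.493). SREBF2 (-0.283 to 0.114), SCAP (-0.272 to 0.082), INSIG1 (-0.132 to 0.021), LSS (-0.288 to 0.079), DHCR7 (-0.319 to 0.314) and CYP51A1 (-0.198 to 0.413) passed in at least 1 of these fits and had the other sign in another. The causes were not tested. All 31 genes were well above the minimum count, and any other part of depth was not tested. Precision is limited by 3 libraries a group.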
